A study of Mus musculus with 2 samples.

Results

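Arntl (ENSMUSG00000055116.9, also called Bmal1), Clock (ENSMUSG00000029238.12) and Rora (ENSMUSG00000032238.18) are the genes of the activating side of the circadian clock described here. They are 3 of the 33757 features in the deposited count table and were picked by name, through the gene symbols that belong to the table's Ensembl identifiers. All 3 passed the filter on low counts.

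The circadian clock is a transcriptional feedback loop that runs in nearly every mammalian cell, cultured fibroblasts included. The proteins ARNTL and CLOCK pair through their bHLH-PAS domains, bind E-box sequences and switch on the Per and Cry repressors, the PAR bZip factors Dbp and Tef, and the nuclear receptors Nr1d1 and Nr1d2 (REV-ERB alpha and beta). A second loop acts on Arntl itself: REV-ERB receptors repress, and ROR receptors such as RORA activate, through one kind of element, the RORE, so that Arntl RNA peaks at the opposite phase to the E-box targets.

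The cells were mouse NIH3T3-Rev-VNP1-H2B-iRFP fibroblasts. This NIH3T3 derivative has a Venus fluorescent reporter named for Nr1d1 and an H2B histone tagged with iRFP, a near-infrared fluorescent protein. Cells of all groups carried both constructs. They were untreated, unsynchronized and grown to 95% confluency about 5 days after seeding, so cells of any circadian phase could be in the dish at once. Single cells, 1 per well, went into 2 plates of 384 wells across 4 Venus gates, called gate 1 (dimmest) to gate 4 (brightest) here, and full-length cDNA was made by FLASH-seq. Plate 1 held only the high iRFP sort and plate 2 only the low iRFP sort, so plate and iRFP sort cannot be told apart, and neither can gate and well position, because each gate took identical well columns on the 2 plates. The labels do not say whether the line is 1 clone or whether the plates came from separate cultures. P-values for trends and steps over both plates therefore measure only the spread between these plates. Those for plate differences and single plates came from straight-line fits and measure departures from a line over the gates.

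After filtering, 762 of 768 cells remained, with 151173 to 1618022 counts per cell and 94 to 96 cells per plate and gate. No 2 cells had identical counts, and no doublet caller was run. Summed counts per plate and gate ran from 76042157 to 86612194. All 12 fibroblast markers exceeded 1 CPM (counts scaled to a common library total), summing to between 20665 and 27076 CPM, while the summed epithelial, endothelial, immune, neural and myogenic markers measured stayed at or below 7.74 CPM, with Cdh1 and Des the only ones above 1 CPM. The markers Kdr, Rbfox3, Myod1 and Myog were among those with no matching symbol in the count table. The myogenic sum therefore rested on Des alone.

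The promoter letters of these genes are shown first because Arntl and Nfil3, a second gene of the RORE loop, fell along the gates while E-box genes rose. In RefSeq promoter windows of GRCm38.p6, each running from 250 bases before to 50 bases after a transcription start, the RORE cores TAGGTCA and TGGGTCA and the E-box CACGTG were searched on both strands, and the variant TAGGTTA was added after the Arntl window had been read. Of 21 clock genes looked up, 18 matched a window. A RORE core stood in 2 of the 18 genes, Arntl and Nfil3, against 6.45% of all 32851 windows. The variant stood in 1 gene, Arntl, and in 1.44% of all windows. Its match in Arntl was known before the search, so these values are no comparison. The E-box stood in 5 genes, namely Per1, Tef, Bhlhe41, Ciart and Cry1, against 7.15% of all windows. No searched word occurred in the windows of Clock, Rora or Npas2. The same held for Nr1d1, Nr1d2, Dbp, Per3 and Cry2, which rose along the gates. Some genes had more than 1 window, so shares of genes and shares of windows are not directly comparable. A match describes letters only and is no evidence of binding. The stretches below have the match in capitals and read along the gene's strand.
Arntl, RORE core, chr7:113207532-113207556 (+): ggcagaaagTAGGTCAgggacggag
Arntl, RORE core variant, chr7:113207496-113207520 (+): gtcggaaagTAGGTTAgtggtgcga
Nfil3, RORE core on the opposite strand, chr13:52981036-52981060 (-): gctcggaacTGACCTActaacacac
Tef, E-box, chr15:81802537-81802561 (+): ctgtggctcCACGTGctgcagctgg
The Arntl core began 31 bases into the transcript of one RefSeq start and the variant began 6 bases before that start. The Nfil3 core began 12 bases before the start, and the Tef E-box 127 bases before it.

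Arntl, the partner through which CLOCK reaches DNA, was highest in dim cells and fell as Venus rose. On plate 1 it stood at 50.2, 40.7, 18.5 and 12.1 CPM in gates 1 to 4, and on plate 2 at 43.1, 40.6, 17.0 and 12.3 CPM. Gates 1 and 2 lay above gates 3 and 4 on both plates with no overlap between them. The mean over plates went from 46.6 ± 5.0 CPM (SD, n = 2 plates) in gate 1 to 12.2 ± 0.18 CPM in gate 4. Gate 1 exceeded gate 4 by 4.15-fold on plate 1 and by 3.49-fold on plate 2.

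The fall of Arntl amounted to -0.72 ± 0.03 log2 per gate (SE), and the edgeR quasi-likelihood test gave an adjusted p of 4.01e-05 over 18430 genes. The trend on plate 1 alone was -0.76 and on plate 2 alone -0.67 log2 per gate, and in the 380 cells with the lowest cell-cycle gene levels on their plate it was -0.79. Of the 3 genes, 2 were called along the gates, against 15.4% of all genes tested, of which 1250 rose and 1593 fell (44.0% higher). With library totals in place of TMM scaling, 57.8% of the called genes were higher, and the median trend over all genes moved from 0.0005 to 0.018 log2 per gate. Plate 2 alone gave Arntl an adjusted p of 0.145 at a slope of -0.68, in a fit with 1 library per gate that called 4 genes.

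**Figure D1:**
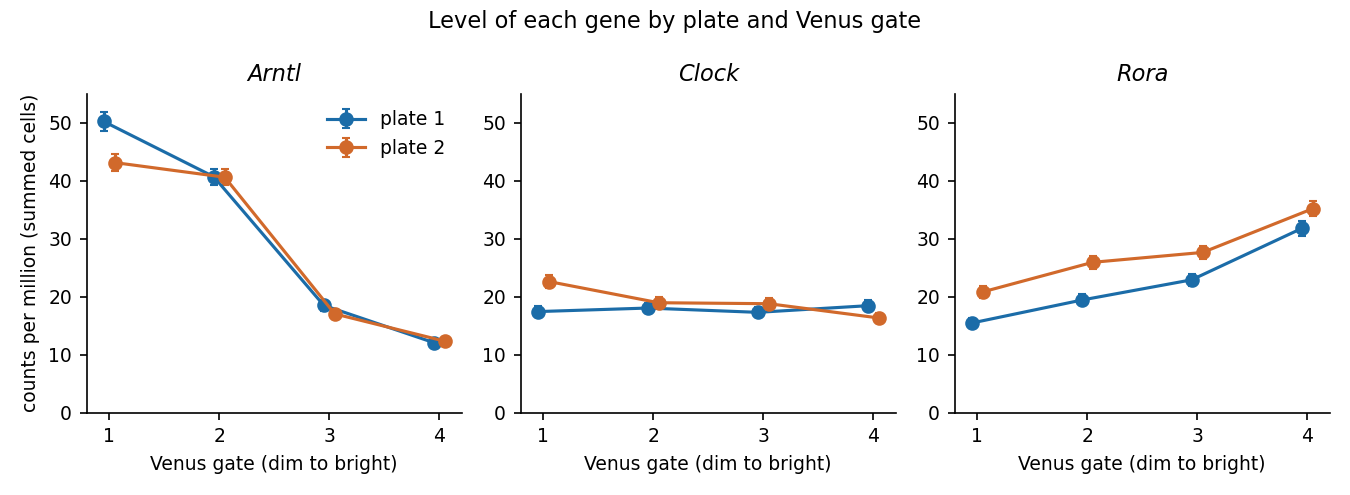
Level of each gene in CPM of the summed cells (vertical axis, from 0) by Venus gate (horizontal axis) on plate 1 and plate 2. Bars are exact Poisson 95% intervals that cover at most counting error, with each read treated as an independent molecule. Arntl drops from gate 2 to gate 3 on both plates, Clock stays between 16.3 and 22.6 CPM, and Rora climbs on both plates with plate 2 above plate 1 in each gate.

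Most of the fall of Arntl lay between gates 2 and 3. The change was -0.21 ± 0.09 log2 (SE) from gate 1 to gate 2, -1.20 ± 0.09 from gate 2 to gate 3 and -0.58 ± 0.09 from gate 3 to gate 4. Only the middle step was called, with an adjusted p of 0.0050 by edgeR against 0.335 and 0.061 for the outer steps. The backgrounds were 0.271% of genes called from gate 1 to 2, 0.0651% (12 genes) from gate 2 to 3, and 0.260% from gate 3 to 4. Across the 3 genes, 1 of 9 steps was called. The number rose to 3 with DESeq2, which added the last step of Arntl (adjusted p 1.84e-05) and of Rora (0.0145). The middle step minus the first was -0.99 ± 0.15 log2, a contrast added after the steps had been seen. Its adjusted p was 0.249 by edgeR, where 0.00% of genes were called and 1472 had an unadjusted p under 0.05, and 4.41e-05 by DESeq2, where 127 genes were called.

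The E/D-box clock genes called at the step from gate 2 to 3 were Nr1d1, Dbp, Nr1d2, Per3 and Tef, and all 5 rose. Dbp, a PAR bZip transcription factor, stood at 17.4, 20.8, 49.9 and 73.1 CPM over gates 1 to 4 on plate 1 and at 19.2, 23.3, 56.9 and 82.5 CPM on plate 2. Its middle step was 1.27 ± 0.07 log2 (adjusted p 0.00051 by edgeR). Nr1d2, the beta form of REV-ERB, gained 1.18 ± 0.09 log2 between gates 2 and 3 (adjusted p 0.0050 by edgeR) after a step of 0.07 ± 0.09 between gates 1 and 2. Per3, a period repressor, and Tef, a PAR bZip factor, gained 0.86 ± 0.08 and 0.80 ± 0.07 log2. Nr1d1, the gene the reporter is named for, rose at all 3 steps, by 1.73, 1.31 and 1.13 log2. Its counts may include reads of the reporter construct. The gates were set on that reporter, so the rise of Nr1d1 along them is no independent result.

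**Figure D2:**
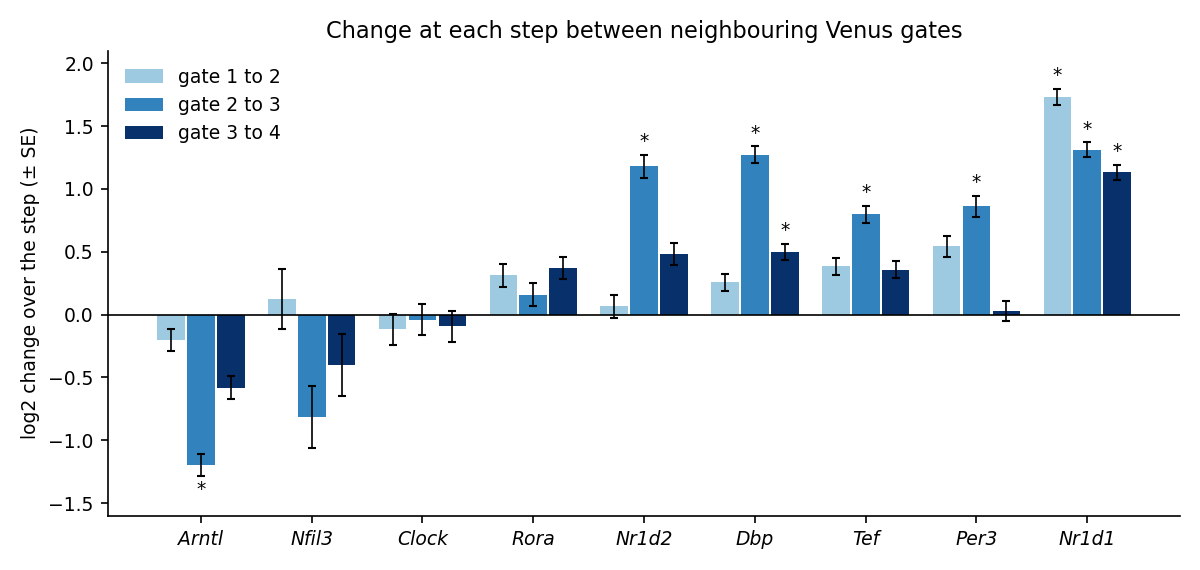
Log2 change between neighbouring Venus gates (vertical axis, bars with SE) for Arntl, Clock, Rora and 6 other clock genes (horizontal axis), from the 8 sums of 2 plates; asterisks mark an adjusted p under 0.05 by edgeR. Arntl has its called step between gates 2 and 3, at -1.20, where Dbp, Nr1d2, Per3 and Tef have called rises, and no step of Clock or Rora is called.

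Inside single cells, Arntl went undetected more often in bright gates. The median cell held 45.6 CPM in gate 1 and 7.77 CPM in gate 4 on plate 1, and 40.9 and 6.77 CPM on plate 2. Cells without an Arntl count made up 2.1%, 3.1%, 16.7% and 27.1% of gates 1 to 4 on plate 1 and 7.4%, 3.2%, 26.0% and 30.9% on plate 2. Thinned to 300000 counts per cell, the shares in gate 4 were 34.4% and 37.2%. Median depth per gate lay between 791215 and 895858 counts, and a 0 is a failure to detect at that depth. The ranges still overlapped, since the highest cell of gate 4 reached 65.3 CPM on plate 1 and 62.9 CPM on plate 2. Of gate 4 cells, 3 of 96 and 5 of 94 exceeded the gate 1 median of their plate.

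**Figure D3:**
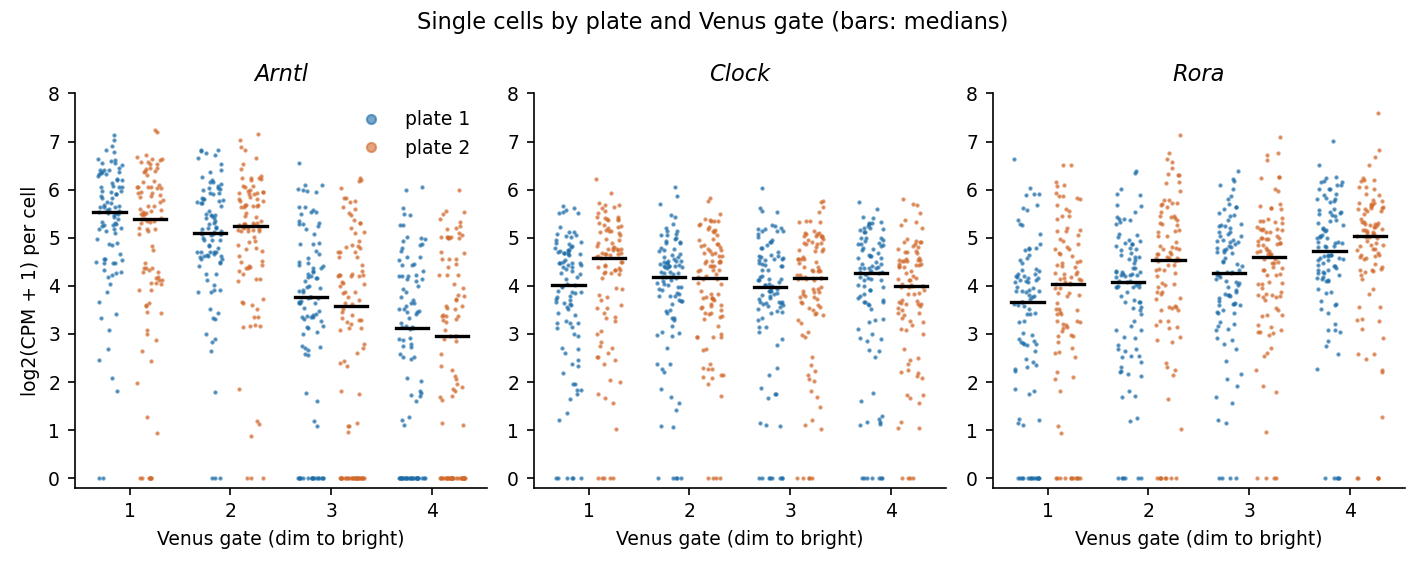
Each dot is 1 cell, with log2(CPM + 1) on the vertical axis, the Venus gate on the horizontal axis, plates side by side and a bar at the median. The Arntl medians drop and dots gather at 0 in gates 3 and 4, Clock medians go from 15.2 to 18.2 CPM between gates 1 and 4 on plate 1 and from 23.0 to 14.9 CPM on plate 2, and Rora medians climb.

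Clock, which encodes the dimer partner of ARNTL, had no called trend. It stood at 17.4, 18.0, 17.3 and 18.5 CPM in gates 1 to 4 on plate 1 and at 22.6, 19.0, 18.8 and 16.3 CPM on plate 2. The plates differed most in gate 1 and crossed in gate 4. The trend was -0.08 ± 0.04 log2 per gate (SE, edgeR adjusted p 0.228), and no step was called. Plate 1 alone gave -0.01 and plate 2 alone -0.15 with TMM scaling, and without it plate 1 gave 0.018. The median cell likewise went from 15.2 CPM in gate 1 to 18.2 CPM in gate 4 on plate 1 and from 23.0 to 14.9 CPM on plate 2. The trend on plate 2 minus that on plate 1 was -0.14 ± 0.06 log2 per gate (SE), a contrast added after the trends had been seen. Its unadjusted p was 0.044 and its adjusted p 1 by edgeR, where 0.00% of genes were called and 638 had an unadjusted p under 0.05. For Arntl and Rora this difference was 0.08 ± 0.15 and -0.08 ± 0.06, also with an adjusted p of 1. These differences came from a straight-line fit within each plate, so their errors measure departures from a line and not the spread between plates. A difference between the plates and one between the iRFP sorts cannot be told apart. Cells without a Clock count made up 4.3% to 8.3% of each plate and gate.

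Rora, the receptor that opposes REV-ERB at ROREs, rose toward bright gates. On plate 1 it stood at 15.5, 19.4, 22.9 and 31.8 CPM in gates 1 to 4, and on plate 2 at 20.8, 25.9, 27.6 and 35.2 CPM. Every step went up on each plate, and plate 2 lay above plate 1 in all 4 gates. Gate 4 exceeded gate 1 by 2.05-fold on plate 1 and 1.69-fold on plate 2. The trend was 0.27 ± 0.03 log2 per gate (SE, edgeR adjusted p 0.0021). No step alone was called, with changes of 0.31 ± 0.09, 0.16 ± 0.09 and 0.37 ± 0.09 log2. Without gate 4 the trend was 0.24 with an adjusted p of 0.0526, and with plate 2 alone it was 0.23 with an adjusted p of 0.207.

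Along the gates 13 of 43 S phase genes rose, none fell and 30 were not called, with a median trend of 0.18 log2 per gate. Of 54 G2/M genes, 7 rose, 2 fell and 45 were not called, beside 15.4% called among all genes. The G2/M median was 0.21 on plate 1 and -0.04 on plate 2. In the 380 cells with the lowest cell-cycle gene levels the Rora trend was 0.28, with an adjusted p of 0.0171 by edgeR.

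Levels between the genes were compared per kilobase of annotated exon, since FLASH-seq reads cover whole transcripts. The exon lengths were 7523 bp for Arntl on chromosome 7, 13727 bp for Clock on chromosome 5 and 13071 bp for Rora on chromosome 9. Each length joins the exons of all annotated transcripts of the gene and can exceed that of the transcripts expressed in these cells. No other length was tried, and the ranking of the genes per kilobase depends on this choice. In gate 1 Arntl held 6.20 ± 0.67 CPM per kb (SD, n = 2 plates), Clock 1.46 ± 0.27 and Rora 1.39 ± 0.29. Arntl led there, and Clock and Rora differed by less than their spread. In gate 4 Rora held 2.56 ± 0.18, Arntl 1.62 ± 0.02 and Clock 1.27 ± 0.11 CPM per kb, so that Rora lay above Arntl on this scale. The annotation places an antisense gene over an exon of Arntl (Gm45355) and of Rora (Gm15511). Whether counting used strand is not given in the sources used here, so reads of each pair cannot be told apart.

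The paralogs of these genes were scarce. Arntl2, which can stand in for ARNTL, ranged from 1.67 to 3.15 CPM with a trend of -0.02 ± 0.06 log2 per gate. Npas2, the CLOCK paralog, stayed between 0.065 and 0.644 CPM, with a trend of -0.18 ± 0.25. Of the 4 bHLH-PAS genes, Arntl and Clock included, Arntl fell and 3 were not called, beside 15.4% called among all genes. Their median trend was -0.13 against 0.0005 over all genes. Rorb had 1 count in each of 2 sums and none in the other sums, and was too low to test, and the third ROR gene reached at most 0.935 CPM. Of the 4 ROR and REV-ERB receptors tested, 3 rose (Rora, Nr1d1 and Nr1d2) and 1 was not called. The gates were set on the reporter named for Nr1d1, so its rise is no independent result.

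Nearly all E/D-box clock genes rose while RORE genes were mixed. Of 12 E/D-box clock genes, 11 rose, none fell and 1, Hlf, was not called, against 15.4% called among all genes. Their median trend was 0.57 log2 per gate. The 11 include Nr1d1, for which the reporter that set the gates is named. Of 6 RORE clock genes, 1 rose, 2 fell and 3 were not called, with a median of -0.13. Nfil3, a repressor that competes with DBP at D-boxes, fell with Arntl, by -0.41 ± 0.08 log2 per gate (adjusted p 0.0142 by edgeR). It stood at 20.7, 18.8, 16.5 and 10.8 CPM over gates 1 to 4 on plate 1 and at 16.2, 20.7, 7.53 and 7.35 CPM on plate 2, a drop that on plate 2 also lay between gates 2 and 3. Cry1, which carries both E-boxes and ROREs, rose by 0.13 ± 0.03. The RORE list contains the members Arntl and Clock and the scarce Npas2, so its median is not independent of the members.

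Most coregulators of the loop were not called. Among 15, 2 rose, 1 fell and 12 were not called, beside 15.4% called among all genes, with a median trend of -0.01 log2 per gate. Ppargc1b, a coactivator related to PGC-1 alpha, rose by 0.25 ± 0.06 and Cipc, a CLOCK-interacting inhibitor, by 0.14 ± 0.03. Kmt2a, a histone H3K4 methyltransferase, fell by -0.15 ± 0.03. Crebbp and Ep300, the acetyltransferase coactivators of CLOCK and ARNTL, had values of 0.01 ± 0.02 and -0.01 ± 0.02 and were not called.

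The plates differed modestly, with no replicate check because each iRFP sort was 1 plate. Arntl stood at 30.3 CPM over all gates on plate 1 and 27.9 CPM on plate 2, a ratio of 0.920 (exact binomial 95% interval 0.894 to 0.947). Clock stood at 17.8 and 19.2 CPM, a ratio of 1.08 (1.04 to 1.12). Rora stood at 22.3 and 27.4 CPM, a ratio of 1.23 (1.19 to 1.27). With TMM-scaled totals the ratios were 0.882, 1.03 and 1.18, each below the interval given for its gene. These intervals cover at most counting error. They treat each read as an independent molecule, which copies made by PCR are not, and no molecular identifiers are described. They can therefore be too narrow even for counting error.

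The spread between cells of a gate differed among the 3 genes. It is given as the coefficient of variation (CV) of CPM, beside the median CV of all genes in the same decile of mean CPM. For Arntl the CV was 0.62, 0.68, 1.02 and 1.18 in gates 1 to 4 on plate 1 and 0.78, 0.72, 1.13 and 1.18 on plate 2. It exceeded the median of its decile in all 8 plate and gate groups, where those medians averaged 0.647 and 0.686 on the plates. The CV expected from counting reads alone was 0.158 to 0.322. That value treats each read as an independent molecule, which copies made by PCR are not. Rora ran from 0.725 to 1.11 and was also above its decile in 8 of 8. Clock ran from 0.677 to 0.734 and was above its decile in 2 of 8.

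Across cells inside single gates, the genes that moved opposite to Arntl were led by E/D-box clock genes. Genes were ranked by the Spearman correlation with Arntl on plate 1, averaged over the 4 gates, among 8505 other genes, Clock and Rora included, with a mean of at least 10 CPM and counts in at least 50% of cells, and were read out on plate 2. The 4 lowest on plate 2 were Dbp at -0.293, Tef at -0.279, Per3 at -0.248 and Nr1d2 at -0.248, and the same genes were among the 10 lowest on plate 1, at -0.236, -0.305, -0.212 and -0.240. Each was negative in all 8 plate and gate groups, of which only those of plate 2 had no part in the ranking. Over all genes ranked, the 1st and 99th percentiles were -0.134 and 0.146 on plate 1 and -0.151 and 0.137 on plate 2. Cells of a gate share a plate and a library preparation, and no p-value is given.

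The other genes among the 10 lowest on plate 1 were weaker on plate 2. Prdx6, a peroxiredoxin, and Hint2, a mitochondrial nucleotide hydrolase, read -0.107 and -0.111 there, both inside the 1st to 99th percentile of all genes. Ndufb6, Pfdn2 and Gtpbp4 read -0.039, -0.044 and -0.022, and Rrp15 turned to 0.056. Over the 10 genes the median was -0.215 on plate 1, where they were chosen, and -0.109 on plate 2, and 9 of 10 stayed negative. The plates' lists of 10 shared 4 genes and their lists of 50 shared 5, with Alg1 the addition.

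Among genes that followed Arntl, the plates' lists of 10 shared 1 and their lists of 50 shared 6. Tsc22d1, a leucine-zipper gene of the TGF-beta-stimulated clone family, headed plate 1 at 0.280 and ranked 9th on plate 2 at 0.202. It was positive in 8 of 8 groups, of which those of plate 1 entered the ranking. Gramd4 followed, at 0.246 and 0.188. The remaining followers were Furin, Sun2, Mbtps1, Yaf2, Twsg1, Chst11, Stx5a and Stk24, from 0.142 for Yaf2 down to -0.059 for Stx5a on plate 2. The median of the 10 was 0.209 on plate 1 and 0.120 on plate 2, with 9 of 10 positive.

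Of the 10 followers, Tsc22d1 and Gramd4 also fell along the gates as Arntl did. Tsc22d1 stood at 529, 440, 327 and 260.0 CPM in gates 1 to 4 on plate 1 and at 468, 417, 333 and 316 CPM on plate 2, a trend of -0.29 ± 0.03 log2 per gate (adjusted p 0.0025 by edgeR). Gramd4 had a trend of -0.15 ± 0.03 (adjusted p 0.0116). Among the 10 followers 3 rose and 2 fell along the gates, and among the 10 opposers 4 rose and 2 fell, beside 15.4% called among all genes, so the lists held genes of either direction.

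**Figure D4:**
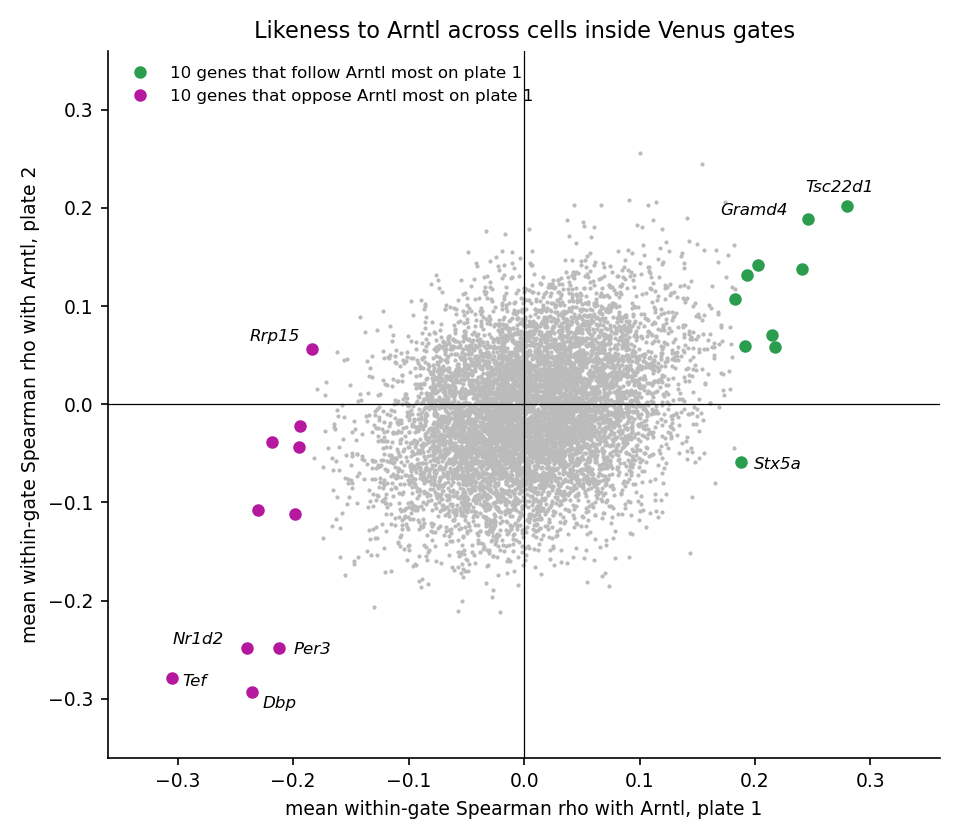
Mean within-gate Spearman correlation with Arntl across cells, plate 1 on the horizontal and plate 2 on the vertical axis, 1 dot per gene; coloured dots are the 10 genes highest and the 10 lowest on plate 1. Tef, Dbp, Nr1d2 and Per3 lie apart in the lower left, at -0.212 or below on both plates, while Rrp15 and Stx5a change sign.

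The size of the opposition can be read from mean levels in cells above and below the Arntl median of their own plate and gate. This split was added after the correlations had been seen and restates them in the same cells. In gate 1 of plate 1, Dbp averaged 10.4 CPM in the 47 cells high in Arntl and 24.5 CPM in the 48 others. In gate 1 of plate 2 the values were 10.5 and 27.9 CPM. Dbp in Arntl-high cells ran from 0.375 to 0.934 times its level in Arntl-low cells over the 8 groups, with a median of 0.705. The medians were 0.734 for Tef, 0.680 for Nr1d2 and 0.709 for Per3, and all 4 genes were lower in Arntl-high cells in 8 of 8 groups. For Dbp the ratio was nearest 1 in gate 4 on each plate, at 0.934 and 0.782.

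Other clock genes were weaker or mixed against Arntl. Per1 had -0.081 on plate 1 and -0.078 on plate 2, Per2 -0.094 and -0.096, and Ciart, a repressor also called Chrono, -0.182 and -0.072. Nr1d1 itself, the receptor that represses Arntl, had 0.029 and 0.039 inside gates, positive in 5 of 8. Venus fluorescence against Arntl inside gates averaged -0.182 on plate 1, negative in all 4 gates, and 0.024 on plate 2, where 2 gates were negative. Each gate holds cells of similar Venus signal, which limits what the values of Venus and Nr1d1 inside gates can show. The RORE gene Nfil3 had 0.049 and 0.023, and Kat2b, an acetyltransferase also called PCAF, had -0.109 and -0.142.

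**Figure D5:**
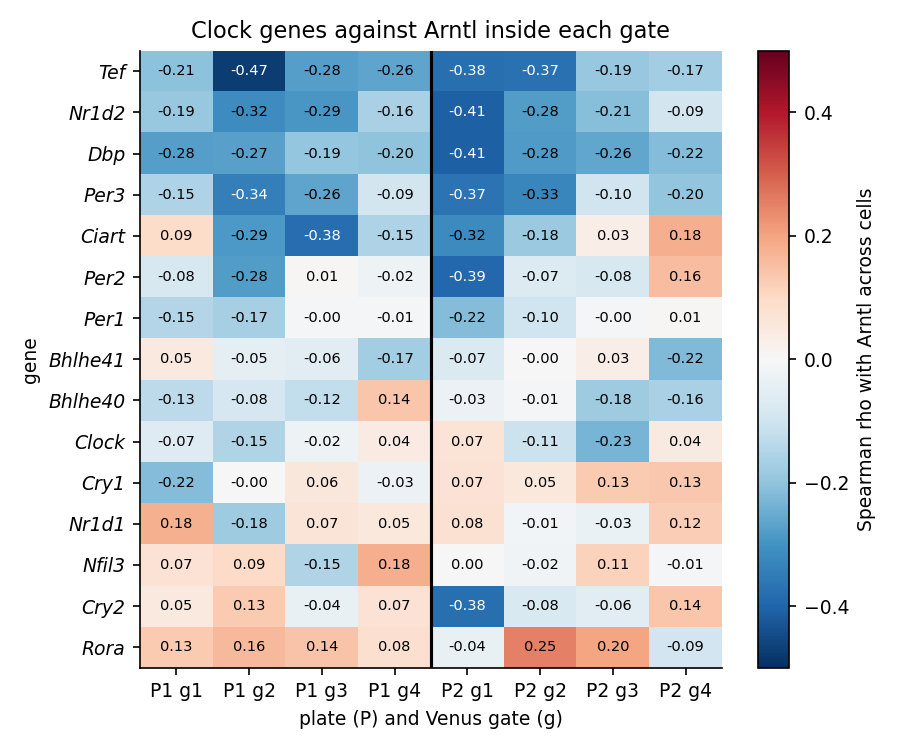
Spearman correlation with Arntl across cells (colour and printed value) for 15 listed clock genes with a mean of at least 5 CPM (rows) in each plate (P) and gate (g) group (columns). The rows of Tef, Nr1d2, Dbp and Per3 are negative in all 8 columns, from -0.09 to -0.47, and the other rows hold mixed signs.

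Correlations among the 3 genes from cell to cell were small. Arntl and Clock, whose proteins form a dimer, had mean within-gate correlations of -0.049 and -0.057 on the plates. Arntl and Rora had 0.128 and 0.080, positive in 6 of 8 groups. Clock and Rora had -0.035 and 0.038. Arntl showed no steady relation to total counts, at 0.020 and -0.001 on the plates, or to forward scatter, at 0.0046 and 0.068. Against genes detected it averaged 0.076 and -0.112, with -0.348 in gate 1 of plate 2. Against summed S phase genes it averaged 0.060 and 0.114, and against G2/M genes -0.024 and 0.079. Those reached 0.331 and 0.314 in gate 4 of plate 2.

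Ranbp3l, St3gal1 and Ypel3 followed Rora most from cell to cell on plate 1, at 0.330, 0.324 and 0.321, and read 0.193, 0.256 and 0.195 on plate 2. Cdc42, a small GTPase, beta-actin (Actb) and Hspa9, a mitochondrial chaperone, opposed it most, at -0.370, -0.298 and -0.293, and read -0.130, -0.181 and -0.222 on plate 2. All 6 kept their sign in 8 of 8 groups, of which those of plate 1 had served to choose them. Against Rora, the 1st and 99th percentiles over all genes ranked were -0.219 and 0.213 on plate 1 and -0.195 and 0.200 on plate 2. On plate 2 St3gal1 and Hspa9 lay outside these percentiles, while Ranbp3l, Ypel3, Cdc42 and Actb lay inside them. The plates' lists of 10 shared no follower and 1 opposer, Park7, and their lists of 50 shared 12 genes on each side. Summed G2/M genes moved against Rora inside gates, at -0.292 on plate 1 and -0.140 on plate 2, in 7 of 8 groups, and their part in these correlations was not tested. Nfil3 was negative against Rora at -0.178 and -0.091, and Bhlhe41, an E-box repressor, positive in 8 of 8 groups at 0.119 and 0.079. Both genes lay inside the percentiles above on each plate.

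For Clock the values on plate 2 were nearer 0. Ankib1, Cul2 and Utp20 led plate 1 at 0.204, 0.188 and 0.184 and read 0.035, 0.091 and 0.094 on plate 2. Rxra and Trp53 were among the 3 lowest on plate 1, at -0.199 and -0.171, and read -0.023 and -0.031 on plate 2. The plates' lists of 10 shared no gene, and their lists of 50 shared 1 on each side.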

How the data were processed

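The authors deposited whole-number read counts per gene and cell, and sorting intensity values per cell in arbitrary units, per the file headers. The submitters' processing notes name STAR 2.7.11a, SAMtools, bedtools, HTSeq and GRCm39 (mm39), without roles. Annotation, strand use and molecular identifiers were not given in the sources used here. Symbols came from a supplied table (24902 features matched, and 1.07% of counts lacked a symbol). Exon lengths and overlaps came from an annotation of GRCm38, an earlier build, and promoter windows from RefSeq.

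Cells with at least 1000 genes, 0.1 of their plate's median total and at most 25% mitochondrial counts were kept and summed per plate and Venus gate. The 8 sums were fitted with edgeR 4.0.16 (R 4.3.3, TMM, filterByExpr, quasi-likelihood F-test) with gate and plate, leaving 3 residual degrees of freedom. The trend weighted outer gates 3 and inner gates 1, divided by 10. Benjamini-Hochberg adjustment covered all genes, with a threshold of 0.05. Same-plate sums share a plate, so plate stayed in as a block. Alternatives used DESeq2 1.42.0, limma 3.58.1, other scaling, filters, gates, plates and cells thinned to 300000 counts, which left 754 cells. The code was tested on simulated data.

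The members and lists were chosen with earlier results of these data known. Named genes were the 3 members, the listed clock genes and coregulators, the 10 highest and 10 lowest genes by within-gate correlation with Arntl on plate 1, and the 3 highest and 3 lowest for Clock and Rora. Of these, 1 gene is not reported here.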

Additional observations from a re-analysis of the deposited data

How the results depend on the processing

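Each trend was refitted under 15 alternatives. Arntl fell in all 15, from -0.89 to -0.67 log2 per gate, and was called in 14. Rora rose in all 15, from 0.23 to 0.31, and was called in 13. Clock was called in none, from -0.15 to -0.01. Single plates gave Arntl -0.68 to -0.76 and Rora 0.23 to 0.31, and both calls were lost without plate 1 (adjusted p 0.145 and 0.207). Without gate 4 Rora was 0.24, not called. The 2843 genes called became 1683 without the replicate block, 1858 with an additive linear model, 1139 without gate 1, 358 without gate 4, 1148 in low cell-cycle cells, and 4 to 264 on single plates. Removing the replicate block changed no call of the 3 genes. Called steps rose from 1 to 2 with no low-count filter, thinned cells or limma, and to 3 with DESeq2; single plates allow no test of steps. The step difference of Arntl was called with DESeq2 (-0.99) and with no low-count filter (-0.99, adjusted p 0.0187). The followers' median on plate 2 of 0.120 moved to 0.098 with thinned cells, 0.059 with Pearson correlation and 0.070 without gate 1. The opposers' -0.109 ranged from -0.136 to -0.072 over the alternatives. For these medians a shift counted as a move when it exceeded the SD over gates, 0.021 for followers and 0.053 for opposers. Thinning moved the mean CV to 0.756 for Clock and 0.924 for Rora. TMM-scaled plate ratios were 0.882, 1.03 and 1.18. The cause of these changes was not tested. With 2 plates, iRFP sort, plate and culture cannot be told apart.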
